A study of Arabidopsis thaliana with 4 samples.

Results

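IAA29, tny, EXPB3 and GI are 4 Arabidopsis thaliana genes of seedling growth control, chosen by the platform annotation out of 1801 genes that could be named on the array. IAA29 (AT4G32280) encodes an Aux/IAA protein, tny (AT5G25810) the AP2/ERF transcription factor TINY, EXPB3 (AT4G28250) a beta-expansin and GI (AT1G22770) the clock protein GIGANTEA. Each gene was measured by 1 probe. The 4 genes were picked when their log ratios in the same comparison were already known, so these ratios are given as a description and no test is attached to them.

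Total RNA of the hy5 mutant and of wild type, both kept for 4 days in unbroken white light, was hybridised together on each of 4 two-colour arrays. The mutant was labelled with Cy3 on replicates 1 and 2 and with Cy5 on replicates 3 and 4, and wild type carried the other dye. The labels name no hy5 allele, plant accession or tissue. HY5 itself was not analysed here.

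HY5, a transcription factor of the bZIP class, drives the change from dark-grown to light-grown seedling form and restrains stem elongation. Aux/IAA proteins bind auxin response factors and hold auxin-responsive genes down until auxin triggers their breakdown, and many Aux/IAA genes are themselves switched on by auxin. Expansins loosen cell walls so that cells can enlarge, TINY restrains growth when it is overproduced, and GIGANTEA links the circadian clock to flowering time and to stem growth.

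The deposited log2 ratios can be read in either of 2 ways, because nothing states whether the columns had already been turned to 1 direction for the dye swap. In the first reading the columns are used as deposited. In the second, replicates 1 and 2 are multiplied by -1, which is called turned here. Across features (a named gene or an unnamed probe, with a value on at least 3 arrays), Pearson's r was 0.285 and 0.229 between arrays of the same dye orientation. It ran from -0.060 to 0.074 between arrays of opposite orientation, so the table did not settle the reading. If the columns hold Cy5 over Cy3, a negative turned ratio is lower in the mutant, and if they hold Cy3 over Cy5 it is higher. No gene is therefore called higher or lower in the mutant.

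The arrays held values for 18004 to 26739 of 27648 probes, and replicate 4 was the emptiest, with 34.9% of its probes lacking a value. IAA29 and GI had no value on replicate 4. Without spot intensities, dim and saturated spots could not be recognised, and precision is limited by the number of arrays. The labels do not say whether the arrays came from separate cultures, while the design text calls them biological replicates. For 3 genes spotted 17 times per array, the SD between spots of 1 array ran from 0.126 to 1.19 on the log2 scale. The single probe of each of the 4 genes carries an error of that kind that could not be measured for it.

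All 4 genes had a negative mean log2 ratio when the dye-swapped arrays were turned, as did 12527 of the 24236 features. Of the 4, tny and IAA29 lay far out and EXPB3 and GI close to 0. The turned means were -1.71 ± 0.62 for tny (SD, n = 4), -1.59 ± 0.79 for IAA29 (SD, n = 3), -0.33 ± 0.35 for EXPB3 (SD, n = 4) and -0.23 ± 0.44 for GI (SD, n = 3). As deposited, the means were 0.33 ± 2.04 for tny, 0.36 ± 2.06 for IAA29, 0.12 ± 0.50 for EXPB3 and -0.24 ± 0.43 for GI, with the same n. As deposited, every one of these means was smaller in size than its SD, and so were the turned means of EXPB3 and GI. In the fit over all 24236 features, 0% were called in either reading at an adjusted p under 0.05 (limma), so none of the 4 genes was called.

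**Figure D1:**
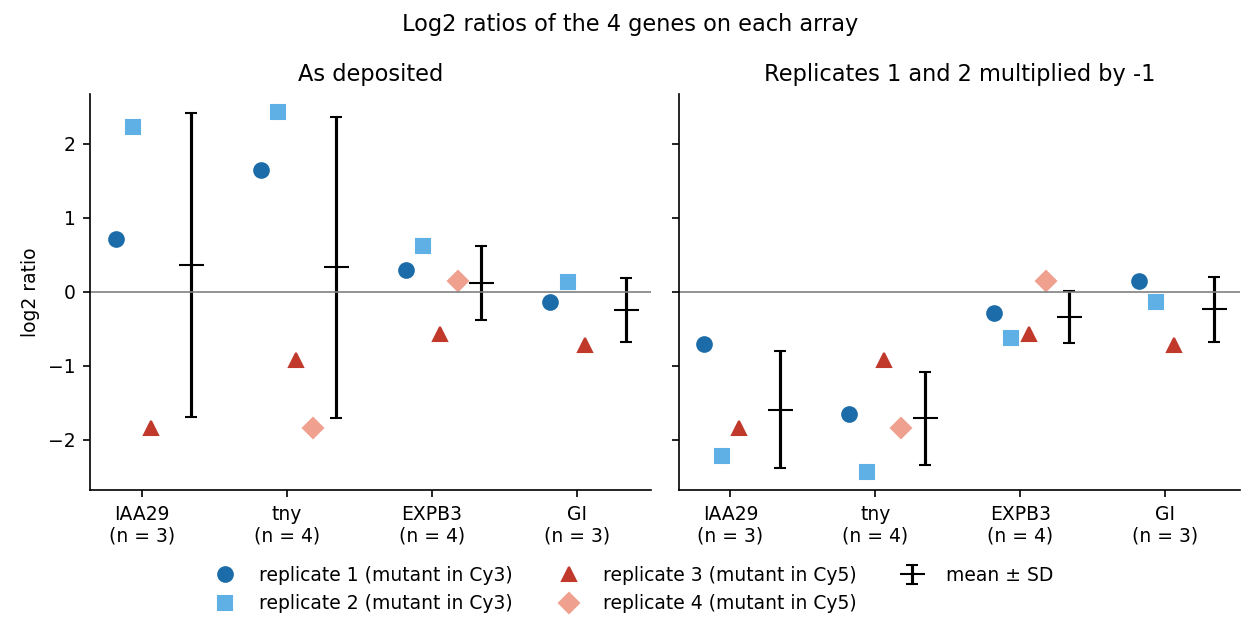
Log2 ratios of IAA29, tny, EXPB3 and GI on each array, as deposited (left) and with replicates 1 and 2 multiplied by -1 (right). Each symbol is 1 array and the black bar is the mean with its SD over 3 or 4 arrays. For IAA29 and tny the arrays fall on both sides of 0 on the left and on 1 side of 0 on the right, while GI lies on both sides of 0 in both panels.

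The auxin gene IAA29 had deposited log2 ratios of 0.71 on replicate 1, 2.22 on replicate 2 and -1.84 on replicate 3. Both arrays with the mutant in Cy3 were positive and the single array with the mutant in Cy5 was negative, so the sign turned with the dyes. Turned, the values were -0.71, -2.22 and -1.84. The mean was a 3.02-fold difference turned and a 1.29-fold difference as deposited. The spread between the same-dye replicates 1 and 2 was 1.51, against a median gap of 0.41 and a 90th percentile of 1.58 over 23787 features. The mutant-in-Cy5 side of IAA29 rests on replicate 3 alone.

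The AP2/ERF gene tny had deposited log2 ratios of 1.65, 2.44, -0.92 and -1.84 on replicates 1 to 4. Again the arrays with the mutant in Cy3 were positive and those with the mutant in Cy5 negative. A sign that turned with the dyes on every array with a value was found in 24.5% of all features. Turned, all 4 values were negative, between -2.44 and -0.92. The mean was a 3.28-fold difference turned and a 1.26-fold difference as deposited. The same-dye gaps of tny were 0.79 between replicates 1 and 2 and 0.92 between replicates 3 and 4. Over features the median gaps were 0.41 and 0.43, and the 90th percentiles 1.58 and 1.64.

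The wall gene EXPB3 had deposited log2 ratios of 0.29, 0.62, -0.57 and 0.14 on replicates 1 to 4. Its sign turned with the dyes on replicates 1 to 3 and not on replicate 4, where the mutant-in-Cy5 value was positive. Turned, 3 values lay between -0.62 and -0.29 and replicate 4 stood at 0.14, so the turned mean of -0.33 was about as large as its SD of 0.35.

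The clock gene GI had deposited log2 ratios of -0.14, 0.13 and -0.71 on replicates 1, 2 and 3. It kept no common sign in either reading, since replicates 1 and 2 opposed each other. Replicate 3 held its largest ratio in size, and without it the mean was -0.0056 as deposited and 0.0056 turned. The 2 readings gave GI nearly the same mean, because replicates 1 and 2 nearly cancel.

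By size of the turned mean the order was tny, IAA29, EXPB3 and GI, and by size of the deposited mean it was IAA29, tny, GI and EXPB3. In both readings, IAA29 and tny differed by less than the SD of either, and so did EXPB3 and GI. The turned values of IAA29 (-2.22 to -0.71) and of EXPB3 (-0.62 to 0.14) did not overlap, nor did those of tny and EXPB3, while GI and IAA29 overlapped by a narrow margin, at -0.714 and -0.709. As deposited, the ranges of all 4 genes overlapped.

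Within each array the distance of IAA29 and tny from the middle was uneven. On replicate 2, 4.21% of probes lay farther from 0 than tny and 5.15% farther than IAA29. On replicate 3, 5.30% lay farther than IAA29 but 18.4% farther than tny, and on replicate 1 it was 5.51% for tny and 26.1% for IAA29. On replicate 4, 5.83% of probes lay farther from 0 than tny. IAA29 was thus in the outer tails on replicates 2 and 3 and less far out on replicate 1, and tny was less far out on replicate 3 than on the others.

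EXPB3 and GI lay nearer the centre of the arrays. For EXPB3, 31.6% of probes were farther from 0 on replicate 2, 33.7% on replicate 3, 59.2% on replicate 1 and 76.2% on replicate 4. For GI, 26.2% of probes were farther from 0 on replicate 3, and 78.8% and 79.8% on replicates 1 and 2.

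**Figure D2:**
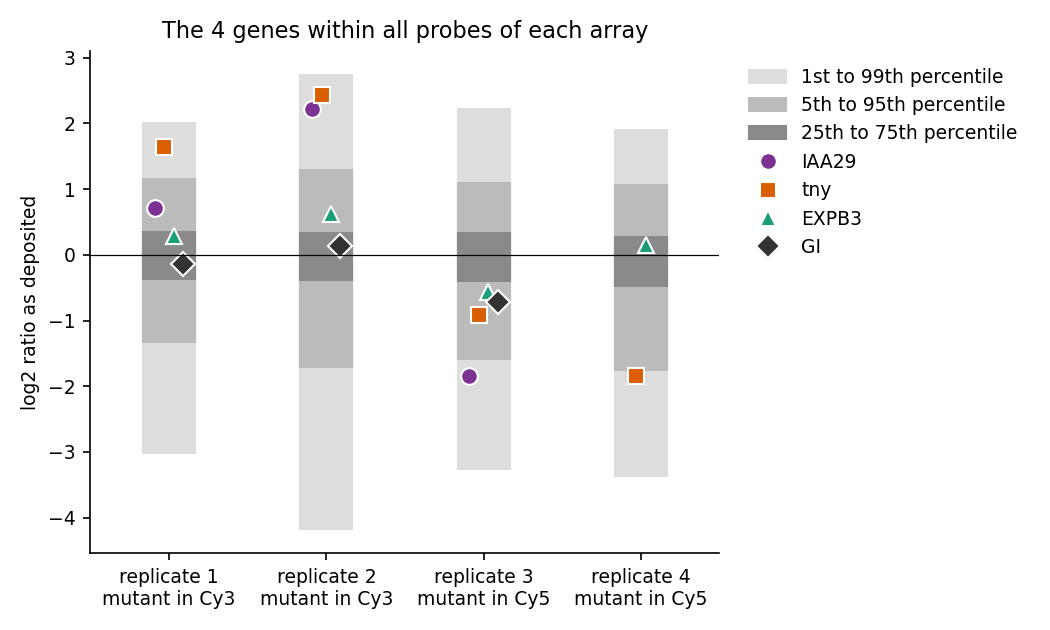
Deposited log2 ratios of the 4 genes (symbols) over the spread of all probes with a value on that array (grey bars, percentile ranges). IAA29 lies above the 95th percentile on replicate 2 and below the 5th on replicate 3, tny lies above the 95th on replicates 1 and 2 and below the 5th on replicate 4, and GI and EXPB3 stay inside the 5th to 95th percentiles on every array where they have a value.

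The log2 ratio of a gene can be split into a part that keeps its sign on all arrays and a part that turns with the dyes, giving both orientations equal weight. For IAA29 the part that kept its sign was -0.19, opposite in sign to the plain deposited mean of 0.36, in which replicates 1 and 2 outweigh replicate 3. Its part that turned was -1.66. For tny they were 0.33 and -1.71, and for EXPB3 0.12 and -0.33. In these 3 genes the turning part was the larger in size. For GI both parts were equal to within 0.01 in size, at -0.360 and -0.354. Its mutant-in-Cy3 mean was -0.0056, so both parts come almost wholly from replicate 3 and their likeness follows from that.

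Of the 24236 features, 1.69% had a turning part larger in size than that of IAA29 and 1.53% larger than that of tny. For EXPB3 and GI the shares were 37.0% and 34.9%. The sign turned with the dyes on every array with a value in 2 of the 4 genes, IAA29 and tny, against 24.5% of all features. A turned mean of at least 1 in size was also reached by these 2 of the 4, against 6.13% of all features. As deposited, 0 of the 4 reached that size, against 7.25% of features. No gene of the 4 had 1 sign on all its arrays as deposited, against 22.0% of features. The genes were picked with this comparison in view, so nothing is read from these counts. A genotype difference in columns not yet turned and a dye bias of the probe in columns already turned give this same pattern, and the 2 cannot be told apart here.

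**Figure D3:**
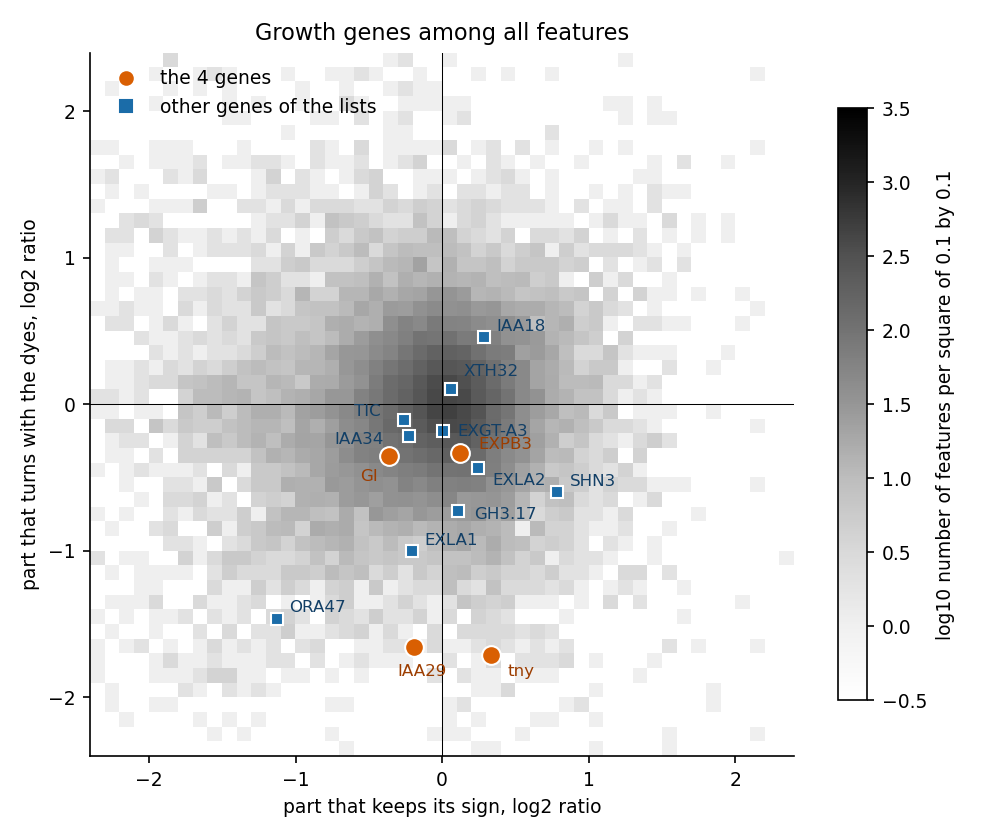
Part of the log2 ratio that keeps its sign on all arrays (x axis) against the part that turns with the dyes (y axis). Grey squares count all features on a log10 scale, orange circles are the 4 genes and blue squares the other genes of the growth lists, and features beyond 2.4 in size are outside the axes. IAA29 and tny lie low on the y axis at -1.66 and -1.71 with small x values, and EXPB3 and GI lie inside the dense centre.

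The auxin, AP2/ERF, wall-loosening and clock lists held 10 further genes that were measured, each by 1 probe with a value on all 4 arrays. In limma, 0 of these 10 had an adjusted p under 0.05 in either reading, as did 0% of all features. Their adjusted p ran from 0.717 to 0.996 as deposited and from 0.467 to 0.884 turned. At an unadjusted p under 0.05 there were 0 of the 10 as deposited and 2 turned, against 1830 and 2128 of the 24236 features. Turned, 8 of the 10 means were negative, against 12527 of the 24236 features. Their median was -0.33, against a median of -0.014 over all features. As deposited, 4 of the 10 were negative, against 12315 of the 24236 features, and the median was 0.032, against -0.0064. In 5 of the 10 the sign turned with the dyes on all 4 arrays, against 24.5% of features. The lists were chosen with earlier results of these data known, so nothing is read from these p-values and counts.

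Out of an auxin list of 186 loci, 3 further genes were measured. GH3.17 (AT1G28130), which joins auxin to an amino acid and so takes it out of use, had deposited log2 ratios of 0.94, 0.73, -0.52 and -0.73 on replicates 1 to 4. The sign turned with the dyes on all 4 arrays, as it did for IAA29, and the turned mean was -0.73 ± 0.17 (SD, n = 4). IAA18 (AT1G51950), another Aux/IAA gene, had a turned mean of 0.46 ± 0.51 (SD, n = 4), on the opposite side of 0 from IAA29. IAA34 (AT1G15050), also of the Aux/IAA family, had -0.22 ± 0.69 (SD, n = 4) turned. As deposited, GH3.17 had 0.11 ± 0.85, IAA18 0.29 ± 0.66 and IAA34 -0.23 ± 0.69 (SD, n = 4 each), so the 3 measured Aux/IAA genes did not share a sign in either reading.

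Among wall genes, the expansin-like gene EXLA2 (AT4G38400) had deposited log2 ratios of 0.47, 0.89, -0.51 and 0.13 on replicates 1 to 4, close to EXPB3 on each array. Its turned mean was -0.44 ± 0.42 (SD, n = 4). EXLA1 (AT3G45970), another expansin-like gene, had 0.021, 1.57, -1.46 and -0.95, and a turned mean of -1.003 ± 0.71 (SD, n = 4). Turned, all 4 values of EXLA1 were negative, and replicate 1 lay close to 0. Of the 2 genes for enzymes that act on xyloglucan, EXGT-A3 (AT2G01850) had -0.18 ± 0.035 and XTH32 (AT2G36870) 0.10 ± 0.078 turned (SD, n = 4 each). Both were small ratios of opposite sign that each turned with the dyes on all 4 arrays. As deposited, the 4 means lay between -0.21 and 0.24. Expansin genes form a family of related sequence, and cross-hybridisation between members was not tested.

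Of the AP2/ERF factors, SHN3 (AT5G25390), a gene of the cuticle wax regulators, had deposited log2 ratios of 2.24, 0.54, 0.47 and -0.094 on replicates 1 to 4. Its mean was 0.79 ± 1.01 as deposited and -0.60 ± 1.17 turned (SD, n = 4). ORA47 (AT1G74930), a factor linked to jasmonate, had 0.49, 0.17, -4.79 and -0.39. Its mean was -1.13 ± 2.47 as deposited and -1.46 ± 2.22 turned (SD, n = 4), and without replicate 3 it was 0.092 and -0.35. SHN3 kept no common sign in either reading, while the turned values of ORA47 were all negative, as those of tny were.

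The clock list gave 1 further gene, TIC (AT3G22380), which is needed for the plant clock to keep its rhythm. Its deposited log2 ratios were -0.28, -0.013, -0.10 and -0.63 on replicates 1 to 4. All 4 values were negative as deposited, with a mean of -0.26 ± 0.27 (SD, n = 4), and the turned mean was -0.11 ± 0.38. The mean of GI as deposited, -0.24 ± 0.43 (SD, n = 3), differed from the deposited mean of TIC by less than either SD. The 2 means are over unlike arrays, since GI lacks replicate 4, where TIC had its largest ratio in size. Light signalling factors and gibberellin and brassinosteroid genes were listed too, with 23 and 57 loci, and none of them was among the named genes.

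**Figure D4:**
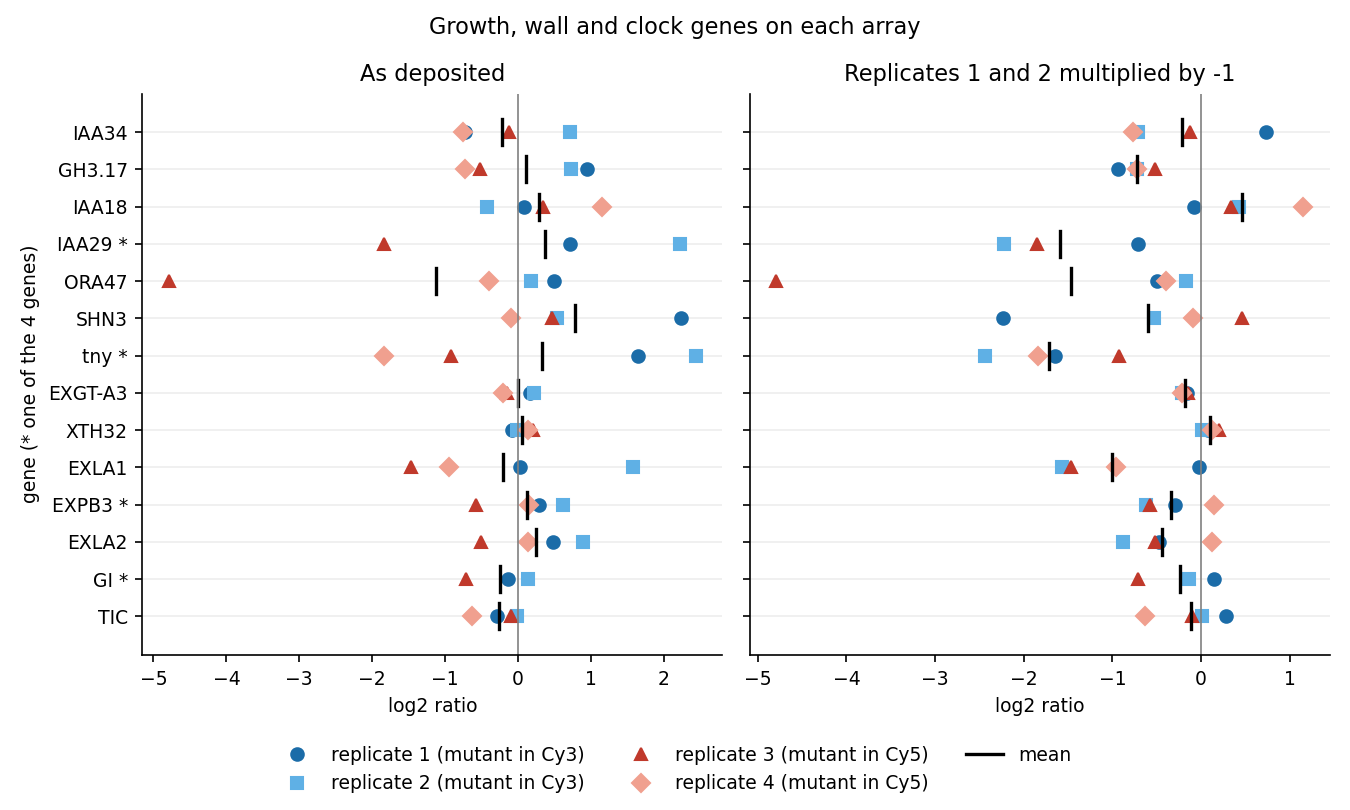
Log2 ratios of the 4 genes (marked *) and of the 10 further genes of the lists, as deposited (left) and with replicates 1 and 2 multiplied by -1 (right). Each symbol is 1 array and the black line the mean. The turned values of GH3.17 lie close together between -0.94 and -0.52, and ORA47 has replicate 3 at -4.79, away from its other arrays.

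Likeness of pattern was measured as the root mean square difference of the deposited log2 ratios over the arrays on which a gene had a value. For IAA29 it was taken over 3 arrays and 1621 named genes, and the nearest were AT1G02660 at 0.208, AT5G65300 at 0.232 and AT1G58280 at 0.313, against a median of 1.73. AT1G02660 had a value of 0.64 on replicate 4, where IAA29 had none. The other two lacked replicate 4 as IAA29 did, so IAA29's nearest genes give only 1 value for that array.

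For tny, over 4 arrays and 1202 named genes, the nearest were the peroxidase gene AT3G49960 at 0.385, AT5G66650 at 0.516 and AT1G76600 at 0.558, against a median of 1.82. All 3 were positive on replicates 1 and 2 and negative on replicates 3 and 4, as tny was. Shared signs follow largely from picking genes by nearness to tny on these same values. IAA29 and tny differed by 0.770 over the 3 arrays they share, and tny stood at rank 30 among the genes nearest to IAA29. In the same way EXLA1 stood at rank 17 for IAA29 and 18 for tny, and GH3.17 at rank 80 and 21. The 10 further genes of the lists did not share 1 pattern. For IAA29 their ranks ran from 17 (EXLA1) to 1344 (ORA47), with IAA18 at 1289. For tny they ran from 18 (EXLA1) to 1119 (ORA47), with IAA18 at 1081.

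For EXPB3 the nearest were AT3G10020 at 0.0751, ATMDAR2 (AT5G03630), a monodehydroascorbate reductase gene, at 0.107 and AT1G22910 at 0.139, over 4 arrays and 1202 genes with a median of 0.611. EXLA2 followed at rank 6 with 0.164, the nearest of the 10 list genes, while EXLA1 stood at rank 906 and ORA47, the farthest, at 1186. For GI the nearest were AT5G19570 at 0.0474, the formate dehydrogenase gene FDH (AT5G14780) at 0.0518 and AT1G02305 at 0.0528, over 3 arrays and 1621 genes with a median of 0.600. On replicate 4, which GI lacks, these 3 had log2 ratios of 0.33, 1.19 and -0.072. Only FDH lay beyond the 95th percentile of that array, at 1.08. Likeness on 3 arrays thus did not fix the value on the other one. EXPB3 and GI lie near 0, where most genes lie, which by itself makes small differences common.

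**Figure D5:**
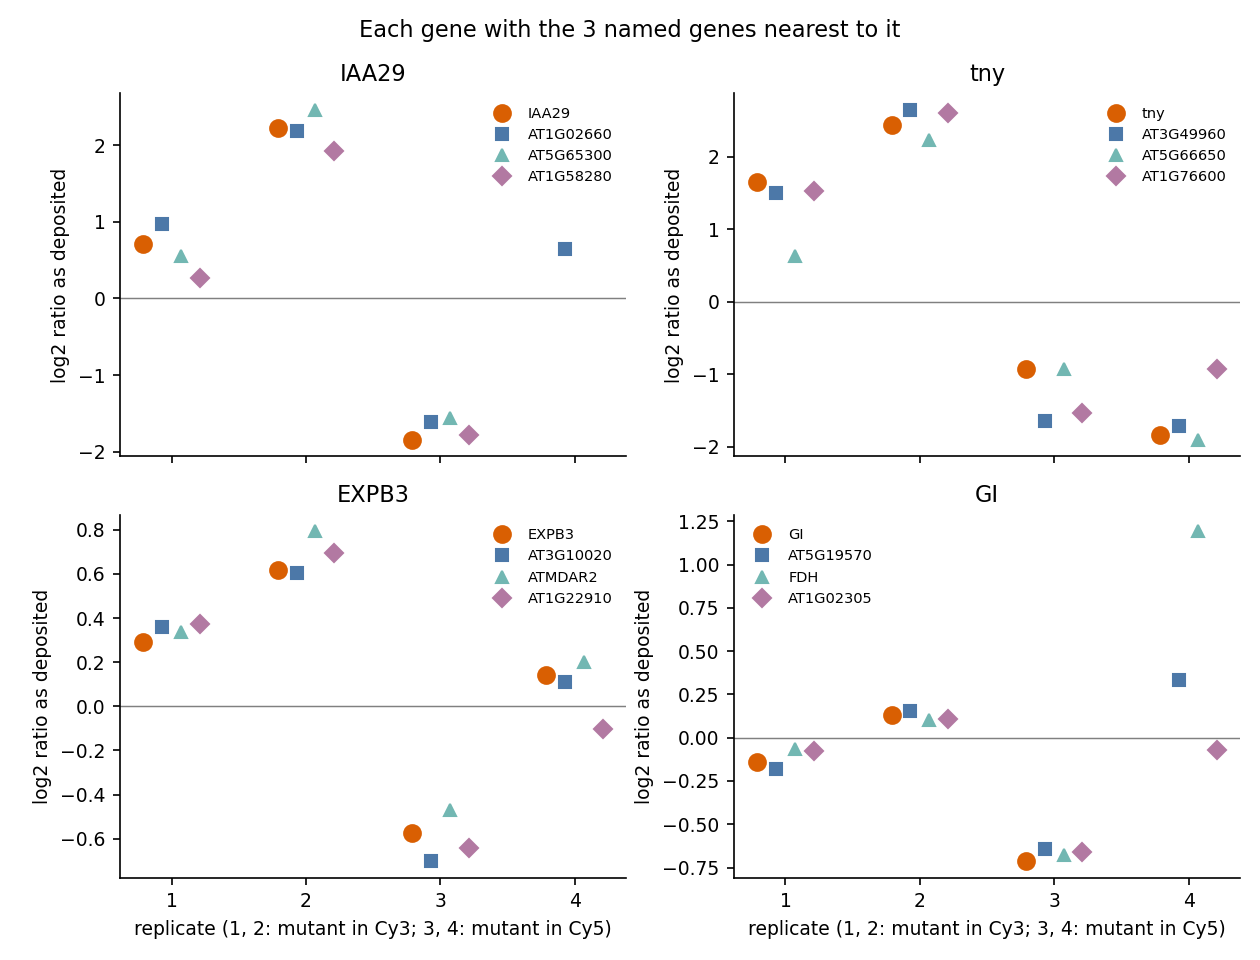
Deposited log2 ratios on each array of IAA29, tny, EXPB3 and GI (orange circles) and of the 3 named genes nearest to each. The vertical scale differs between panels, and the 3 neighbours of GI spread from -0.072 to 1.19 on replicate 4.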

How the data were processed

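The authors deposited 1 log2 ratio per array for each probe, and these ratios were the only data used. The submitters' processing notes name limma without its role or version. Not given in the sources are background correction, normalization, the filter behind empty cells, the logarithm's base (read as 2) and the ratio's direction.

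Of 27648 probes, 2032 had 1 gene in the platform annotation, which can be old, 644 had several and 24972 had none listed. Current symbols came from RefSeq genes of assembly TAIR10.1 by Entrez ID, with 2029 of the 2032 probes matched. No coordinates are given, because no build is named for the array. Names were withheld from 26 genes for which 1 accession served 3 or more probes, the genes spotted 17 times excepted, and their probes stood singly. Probes of a gene were averaged per array.

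Features with values on at least 3 arrays (24236) were fitted by lmFit and eBayes of limma 3.58.1 (R 4.3.3), with an intercept as the only term. The log ratio was tested against 0, two-sided, with Benjamini-Hochberg adjustment over all these features, in both readings. The fit was tested on simulated data with shifts larger than any mean of the 4 genes. It therefore does not show whether ratios of their size would be called. The genes named are the 4 genes, the 3 named genes nearest to each in pattern and every measured gene of 6 lists. Members and lists were chosen with earlier results of these data known.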

Additional observations from a re-analysis of the deposited data

Results flagged for a closer look

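ORA47 was at -4.79 on replicate 3, far from its other 3 arrays by Dixon's gap test for sets of 4, both as deposited and with replicates 1 and 2 turned. The other arrays lay between -0.39 and 0.49 as deposited and between -0.49 and -0.17 turned. These were 2 of the 24 sets of 4 values tested, both from the same spot, where chance flags about 1 set in 20. Neither tny nor EXPB3 had an array that stood apart in this way, and IAA29 and GI, with 3 values each, were not tested.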

How the results depend on the processing

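With limma, 0 features had an adjusted p under 0.05 in both readings under each alternative run: each array left out, arrays centred or also scaled, single probes, the median of a gene's probes, features on all 4 or at least 2 arrays, no variance moderation and a dye term. At an unadjusted p under 0.05 the count was 1830 as deposited and 2128 turned, and leaving out each array gave 1098 (without replicate 1) to 1616 as deposited. Turned, it gave 1049 without replicate 2, 1189 without replicate 1, 1238 without replicate 3 and 2094 without replicate 4, with fewer features tested by construction. Without variance moderation, 1752 and 2197 features had an unadjusted p under 0.05 (t-test). With a dye term in limma the counts were 2279 as deposited and 2575 turned, the highest of all settings. Each array pairs both genotypes, so testing its ratio against 0 is already a paired comparison, and 1 group allows no further block. The turned means kept their sign under every alternative run for tny, IAA29 and EXPB3. For tny and IAA29 every turned value was negative, so leaving out or reweighting arrays could not change the sign. Their kept sign is therefore no check of these means. With each array left out they ranged from -1.97 to -1.47 for tny, from -2.03 to -1.28 for IAA29, from -0.49 to -0.24 for EXPB3 and from -0.42 to 0.0056 (without replicate 3) for GI. As deposited, the ranges were -0.37 to 1.05 for tny, -0.57 to 1.47 for IAA29, -0.047 to 0.35 for EXPB3 and -0.43 to -0.0056 for GI. The deposited mean changed sign in 3 of 11 alternatives for IAA29, 3 of 12 for tny, 2 of 12 for EXPB3 and 0 of 11 for GI, and with equal weight for the dye orientations IAA29 was at -0.19 as deposited. The turned mean of GI changed sign in 2 of 11, without replicate 3 and on the mutant-in-Cy3 arrays alone. For GI these are the same arrays, replicates 1 and 2, so both gave 0.0056. On the mutant-in-Cy5 arrays alone, an alternative added after seeing the data, IAA29 was at -1.84 as deposited and GI at -0.71 in both readings, by construction replicate 3 alone. Since each gene has 1 probe, the settings on probes left their means unchanged. How far dim signal limits these values is unknown.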
